A study of Homo sapiens with 2 samples.

Results

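Long non-coding and antisense RNAs were followed on 2 whole-transcript arrays of S2-013 cells, a human pancreatic cancer cell line. The array labelled as MEK inhibitor came from cells in which HOXB7, a homeobox transcription factor, had been knocked down and put back with a rescue plasmid, and which then received a MEK inhibitor. The array labelled as control came from cells with the same knockdown and the same rescue plasmid but no inhibitor. MEK is the kinase that activates ERK, and the design text names the genes and pathways under HOXB7-MEK signalling as what was sought. Which inhibitor was used, at what dose and for how long, was not stated in the labels used here. Each group is 1 array of 1 cell line, so there is no replicate error behind any value and no test was run.

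The members were taken by name and level. A probe set counted when its gene symbol began with LINC (long intergenic non-coding RNA) or SNHG (host gene of small nucleolar RNAs), contained -AS (antisense), -IT (intronic transcript) or -OT (overlapping transcript), or began with MIR and ended with HG (host gene of a microRNA). Of 53617 probe sets, 1143 had such a symbol, for 1020 genes. Detection meant that the higher of the 2 arrays reached a log2 signal of 4.78, the floor. This left 141 probe sets of 117 genes, and the other 1002 lay below the floor on both arrays. Only 12.3% of these probe sets were detected, against 54.3% of the 13696 other named probe sets that are not small RNA. The floor is the median level of the named genes, so the 54.3% follows largely from that definition and serves only as a reference. Because the level chose the members, a dim RNA could enter through 1 array alone. That held for 27 of the 141, 14 through the inhibitor array and 13 through the array without inhibitor. What follows describes these 2 arrays, and the number of arrays limits its precision.

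Long non-coding RNAs are transcribed, capped and often spliced like messenger RNA, but carry no long reading frame. Some act as scaffolds for chromatin proteins or as sponges for other RNAs, some matter mainly as carriers of a small RNA in an intron or exon, and for many no function is established. An antisense RNA is read from the strand opposite a protein-coding gene, often from the same promoter region or from within the gene. Such RNAs are usually less abundant and more restricted to single tissues than messenger RNA, and they are followed in pancreatic cancer as markers of invasion.

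The RNAs with the largest differences were MIR31HG, which was higher with the inhibitor, and LINC00941, which was lower. Their promoter windows are shown because these were the only 2 detected members past 2-fold, and that of LINC00963 because it was the one higher RNA with an AP-1 motif. Each window runs from 250 bases before to 50 bases after the start of the gene in RefSeq (GRCh38.p14), written 5′ to 3′ on the gene's own strand. Capitals mark matches to the motifs searched. In LINC00941 and MIR31HG all capitals are matches to an NF-kappaB motif, and in LINC00963 the second block of capitals is the AP-1 motif and the first is NF-kappaB.
LINC00941, chr12:30795431-30795730, plus strand: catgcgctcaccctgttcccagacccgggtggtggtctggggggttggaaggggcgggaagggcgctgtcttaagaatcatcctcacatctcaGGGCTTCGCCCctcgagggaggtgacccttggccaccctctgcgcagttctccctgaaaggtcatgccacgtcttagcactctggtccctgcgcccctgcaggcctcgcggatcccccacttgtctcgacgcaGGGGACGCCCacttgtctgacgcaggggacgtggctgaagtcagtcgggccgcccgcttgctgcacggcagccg
MIR31HG, chr9:21559749-21560048, minus strand: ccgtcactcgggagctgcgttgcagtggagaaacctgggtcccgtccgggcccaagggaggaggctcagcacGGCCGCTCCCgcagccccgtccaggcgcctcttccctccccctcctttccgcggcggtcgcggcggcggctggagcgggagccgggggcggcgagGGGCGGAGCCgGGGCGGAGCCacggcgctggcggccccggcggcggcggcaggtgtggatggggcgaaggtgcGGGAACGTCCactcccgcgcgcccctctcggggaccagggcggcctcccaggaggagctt
LINC00963, chr9:129488410-129488709, plus strand: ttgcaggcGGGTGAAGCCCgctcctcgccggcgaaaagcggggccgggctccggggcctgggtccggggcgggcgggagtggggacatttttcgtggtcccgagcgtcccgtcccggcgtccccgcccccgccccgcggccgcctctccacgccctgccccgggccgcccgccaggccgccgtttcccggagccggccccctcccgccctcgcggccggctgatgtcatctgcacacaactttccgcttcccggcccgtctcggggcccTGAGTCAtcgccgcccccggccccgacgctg
The gene of MIR31HG contains the hairpin of microRNA 31, which is shown because its probe set differed in the opposite direction. In the hairpin the capitals mark the mature form hsa-miR-31-5p. In that mature sequence, printed below the hairpin, they mark the seed, bases 2 to 8, which pairs with targets.
MIR31 hairpin, chr9:21512115-21512185, minus strand: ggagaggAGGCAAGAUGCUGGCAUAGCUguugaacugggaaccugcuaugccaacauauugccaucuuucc
hsa-miR-31-5p, chr9:21512158-21512178, minus strand: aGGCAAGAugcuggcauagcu

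MIR31HG had a log2 signal of 6.78 with the inhibitor, against 5.44 without it, which is 1.34 higher on the log2 scale or 2.53-fold. Both arrays lay above the floor. MIR31HG is the primary transcript of microRNA 31 and has also been studied as a regulator of cellular senescence. LINC00941 had 4.08 with the inhibitor, against 5.57 without it (-1.49), which is 2.80-fold lower. Its value with the inhibitor lies under the floor, so this fold ends in a dim signal. LINC00941 has been described in pancreatic and other carcinomas as an RNA linked to invasion. Of the 141 detected probe sets, 1 was thus at least 2-fold higher, as were 0.601% of the 7824 named probe sets that reached the floor, and 1 was at least 2-fold lower, as were 1.07% of the named ones. The members' shares are 0.709% in each direction, so the class as a whole was near the background of the arrays.

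At 1.5-fold, 8 members were higher (5.67%, against 4.45% of named probe sets) and 7 were lower (4.96%, against 3.72%). Of these 15, 6 had 1 of their values below the floor. The 15 are 10.6% of the members in either direction, against 8.17%, and the 2 past 2-fold are 1.42%, against 1.67%. Among all 16832 probe sets above the floor, unnamed ones included, 0.897% were 2-fold higher and 1.25% lower (2.14% in all), and 4.62% were 1.5-fold higher and 5.3% lower (9.92% in all). The one error that can be read from these arrays is how far probe sets for one gene part from each other, a measure of probe error that leaves out the variation between cultures. Over 580 pairs of probe sets from 176 named genes above the floor, the median gap between their log2 differences was 0.12, and 95% of pairs were within 0.64. Pairs from genes with many probe sets are not independent. By that yardstick 13 members (9.22%), 7 higher and 6 lower, differed by more than the spread between probe sets, against 6.67% of the named probe sets, and the other 128 did not. Over the 45 pairs from 8 of the members' own genes the median gap was also 0.12, and 95% were within 0.25. By this narrower spread 63 members (44.7%) lay outside it, against 38.6% of the named probe sets. In what follows the spread between probe sets is the wider one, taken over all named genes.

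**Figure D1:**
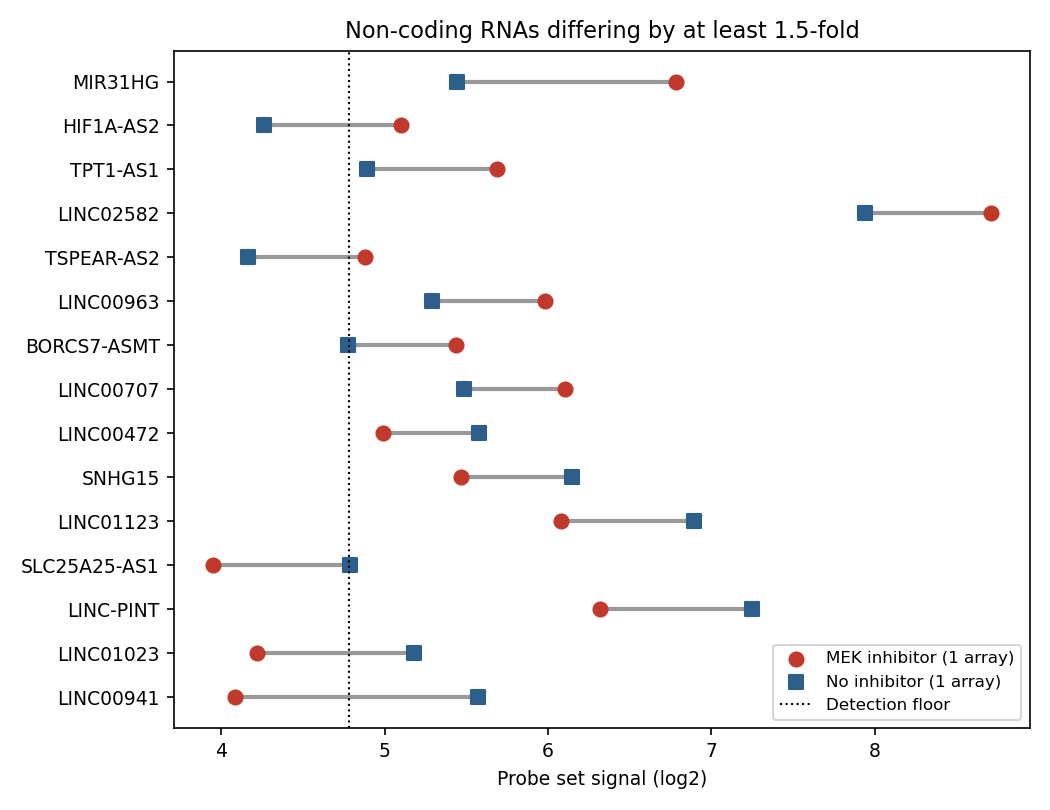
Log2 probe set signal of the 15 members that differed by at least 1.5-fold, with the inhibitor (red circles) and without it (blue squares), 1 array each, and the floor of 4.78 as a dotted line. MIR31HG has the widest gap upwards and LINC00941 the widest downwards, and 6 of the 15 have 1 value left of the floor.

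Among the lower RNAs, LINC-PINT read 6.32 with the inhibitor and 7.25 without it, differing by -0.93. LINC-PINT is a p53-induced RNA that interacts with the Polycomb repressive complex. LINC01123 read 6.08 with the inhibitor and 6.89 without it, differing by -0.81. These 2 and the snoRNA host SNHG15, described below, were the lower RNAs that differed by more than the spread between probe sets and stayed above the floor on both arrays. LINC01023 read 4.22 with the inhibitor and 5.18 without it (-0.96). SLC25A25-AS1, antisense to the gene of a mitochondrial carrier of ATP-Mg and phosphate, read 3.95 with the inhibitor and 4.79 without it (-0.84). Both therefore passed the floor only through the array without inhibitor. LINC00472 read 4.99 with the inhibitor and 5.57 without it, and its difference of -0.59 is inside the spread between probe sets.

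Of the RNAs at least 1.5-fold higher, LINC02582 had the highest signal, with 8.71 with the inhibitor and 7.94 without it, differing by 0.77. TPT1-AS1, which starts next to the gene of the translationally controlled tumour protein TPT1, read 5.69 with the inhibitor and 4.89 without it (0.79). LINC00963, first described in prostate cancer cells that grow without androgen, read 5.98 with the inhibitor and 5.29 without it (0.69). All 3 lay above the floor on both arrays. HIF1A-AS2, read from the strand opposite the gene of the hypoxia factor HIF1A and known to be induced by hypoxia, had 5.10 with the inhibitor and 4.26 without it (0.84). TSPEAR-AS2 read 4.88 with the inhibitor and 4.16 without it (0.72). BORCS7-ASMT read 5.44 with the inhibitor and 4.775, just under the floor, without it (0.66). HIF1A-AS2, TSPEAR-AS2 and BORCS7-ASMT passed the floor only through the inhibitor array. The symbol BORCS7-ASMT met the naming rule by its letters, but it stands for a read-through transcript that joins BORCS7 to AS3MT and is not an antisense RNA. LINC00707 read 6.10 with the inhibitor and 5.48 without it (0.62), which is inside the spread between probe sets.

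**Figure D2:**
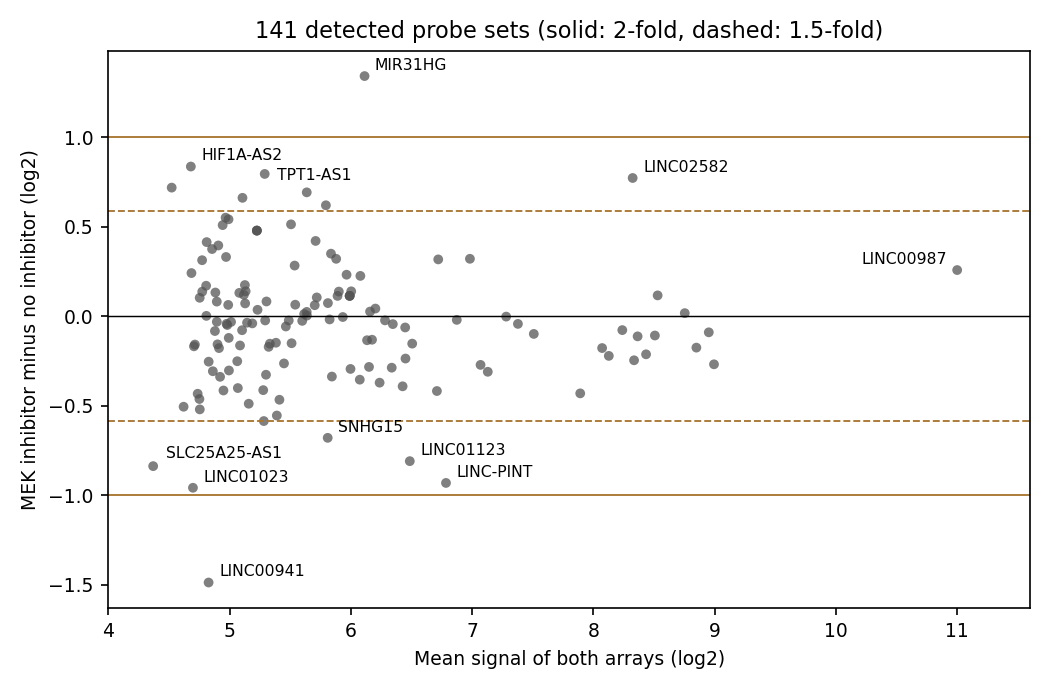
Log2 difference, MEK inhibitor minus no inhibitor, against the mean log2 signal of both arrays for each of the 141 detected probe sets. MIR31HG lies above the upper 2-fold line and LINC00941 below the lower one, and most other points lie within the dashed 1.5-fold lines.

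Most detected members gave a low signal. Probe sets differ in how strongly they bind, so a signal does not rank the amounts of different RNAs. The higher of their 2 values had a median of 5.61, against 6.45 over all named probe sets above the floor. In 88 of the 141 probe sets the higher value was under 6, and 9 of these differed by 1.5-fold or more. From 6 to 8 there were 38, of which 5 did, and from 8 upwards 15, of which 1 did (LINC02582). Over all levels 8.17% of the named probe sets above the floor differed that much. Their share within each range was not counted, so these counts describe the members alone. The highest signal was that of LINC00987, with 11.1 with the inhibitor and 10.9 without it, differing by 0.26. It was followed by MIR4435-2HG, LINC01347, LINC01000 and LINC00999, whose strongest probe sets read 8.76 to 8.91 with the inhibitor and 8.75 to 9.13 without it. Their differences ran from -0.27 to 0.02, so the members with the highest signals differed little. AFAP1-AS1, an antisense RNA long followed in pancreatic cancer and named here after its values were seen, had the highest signal of the antisense members, at 8.31 with the inhibitor and 8.42 without it (-0.11). Its sense gene AFAP1, an actin filament-associated protein gene, had 4.83 with the inhibitor and 5.34 without it (-0.51), the same sign as AFAP1-AS1.

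Over all 141 probe sets the median difference was -0.03, against 0.02 over the named probe sets above the floor. The quartiles of the members were -0.25 and 0.14. Of the members 61 were higher and 80 lower, and 71 lay within 0.2 of no difference. The 59 LINC probe sets had a median of -0.04, with 24 higher and 35 lower. The 66 antisense probe sets, of 60 genes, had a median of 0.00, with 33 higher and 33 lower. Of the 33 higher, 3 are of PSMB8-AS1 and 4 of HLA-F-AS1, some with identical values, so the even split holds for probe sets and not for genes. With the probe sets of a gene averaged the antisense median was -0.02. These medians describe the members that passed the floor and move with it. Of member probe sets whose higher value reached 6.45, the 75th percentile of gene levels, 32 were left, 7 higher and 25 lower. Their median was -0.13, against 0.01 over the named probe sets at that level. The 19 LINC probe sets among the 32 had a median of -0.11 (5 higher, 14 lower), and so did the 5 antisense ones (1 higher, 4 lower). Several of the 25 lower probe sets belong to the same RNA, as with LINC01061 and MIR4435-2HG, so they are not 25 separate RNAs.

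**Figure D3:**
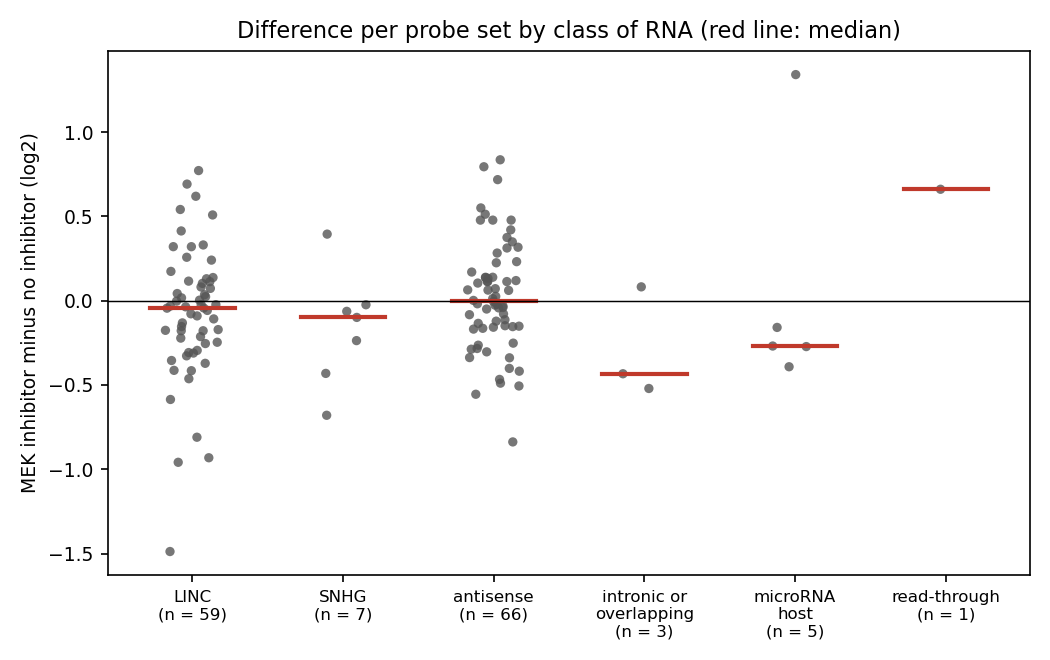
Log2 difference, MEK inhibitor minus no inhibitor, of each detected probe set by class of RNA, with the median of each class as a red line. The LINC and antisense classes spread around 0 and 6 of the 7 SNHG probe sets lie below it. MIR31HG stands apart from the other microRNA hosts.

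The SNHG RNAs carry small nucleolar or Cajal body RNAs in their introns. Once these are cut out, the spliced host RNA is often short-lived. Of 9 SNHG probe sets, 7 were detected, 6 of them lower and 1 higher, with a median of -0.10. SNHG15 read 5.47 with the inhibitor and 6.15 without it (-0.68), and was the only one past 1.5-fold. SNHG16, a host of box C/D RNAs, read 7.68 with the inhibitor and 8.11 without it (-0.43). SNHG17 read 6.33 with the inhibitor and 6.57 without it (-0.24). The other 3 lower ones were close to 0: SNHG8 at -0.10, SNHG5 at -0.06 and SNHG10 at -0.02. SNHG20 was the exception, with 5.10 with the inhibitor and 4.71 without it (0.39). It passed the floor only through the inhibitor array. SCARNA16, the Cajal body RNA in its intron, read 6.25 with the inhibitor and 6.56 without it (-0.31). SNHG33 (4.19 with the inhibitor and 3.81 without it) and SNHG18 (3.12 with the inhibitor and 2.95 without it) were below the floor. For SNHG20 the host and small RNA thus had opposite signs, each within the spread between probe sets.

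Genes of the proteins that bind small nucleolar RNAs were read beside the hosts, from a list chosen for that role. Of 9 snoRNP symbols listed, 6 were named on the array, and all 6 were above the floor. Of these, 5 were lower and 1 higher, with a median of -0.25. At least 1.5-fold lower were 2 of the 6, against 3.72% of the named probe sets above the floor. One was the methyltransferase gene FBL, with 8.95 with the inhibitor and 9.63 without it (-0.68). The other was SNU13, a box C/D core protein, with 5.64 with the inhibitor and 6.26 without it (-0.63), which is inside the spread between probe sets. The core protein gene NOP58 read -0.30 and NOP10 of the box H/ACA particles -0.21, while NHP2 (0.00) and GAR1 (0.05), also of the H/ACA particles, were level. Some spliced SNHG RNAs are known substrates of nonsense-mediated decay, and the 2 measured genes of that pathway were UPF1 (-0.22) and UPF2 (-0.12).

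Of 28 probe sets of microRNA host genes, 5 were detected, for 3 genes. For MIR31HG the host and the microRNA differed in sign. The MIR31 signal was 3.71 with the inhibitor, against 4.90 without it, differing by -1.19, while its host was 1.34 higher. The 236 microRNA probe sets that reached the floor had a median difference of -0.13, against 0.02 over all named probe sets above the floor. Of the 236, 8 were 2-fold lower or more and 0 were 2-fold higher, against 1.07% and 0.601% of the named ones. Apart from MIR31 itself, none was as low. A microRNA probe set can read the hairpin within its precursor as well as the mature form, and the MIR31 value with the inhibitor lies under the floor. MIR210HG and MIR210 did not part in this way. The host read 4.63 with the inhibitor and 4.79 without it (-0.16), so it was under the floor with the inhibitor. MIR210, a microRNA known for its induction by hypoxia, read 6.12 with the inhibitor and 6.35 without it (-0.23).

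MIR4435-2HG had 3 detected probe sets, all lower, at -0.39, -0.27 and -0.27. It has a near-identical copy, CYTOR, whose 3 probe sets read -0.33, -0.35 and -0.76, so probes for the pair may read both RNAs and their values cannot be assigned to 1 of them with certainty. Among hosts below the floor, MIR17HG, which carries the growth-promoting miR-17-92 cluster, read 2.72 with the inhibitor and 3.30 without it (-0.59), and MIR22HG read 4.61 with the inhibitor and 4.44 without it (0.16). Both signals are too dim to call detected.

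The protein-coding genes next to the members past 1.5-fold were read from RefSeq order on GRCh38.p14. Of 36 such neighbours of 15 RNAs, 20 had a named probe set and 12 of these were above the floor. In 5 of these 12 the neighbour had the same sign as the RNA and in 7 the opposite one. Of the 12, 2 were themselves past 1.5-fold, against 8.17% of the named probe sets above the floor. Both lie beside the RNAs past 2-fold. CAPRIN2, an RNA-binding protein gene on 1 side of LINC00941 on chromosome 12, read 6.97 with the inhibitor and 8.12 without it, differing by -1.15 in the same direction as LINC00941. TSPAN11 on its other side was below the floor, with 3.91 with the inhibitor and 4.21 without it (-0.30). MTAP, the methionine salvage enzyme gene next to MIR31HG on chromosome 9, read 8.37 with the inhibitor and 8.98 without it (-0.62). Its sign was opposite to that of MIR31HG and the same as that of MIR31, but its difference is inside the spread between probe sets. The other 10 neighbours above the floor lay between -0.44 and 0.56. PTGES2 beside SLC25A25-AS1 read -0.44 and FBXL17 beside LINC01023 0.56, and OGFRL1 beside LINC00472 read 0.39. Below the floor, LRRC3 beside TSPEAR-AS2 had 4.47 with the inhibitor and 3.79 without it (0.68), and MYO1G beside SNHG15 had 4.18 with the inhibitor and 3.76 without it (0.42).

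**Figure D4:**
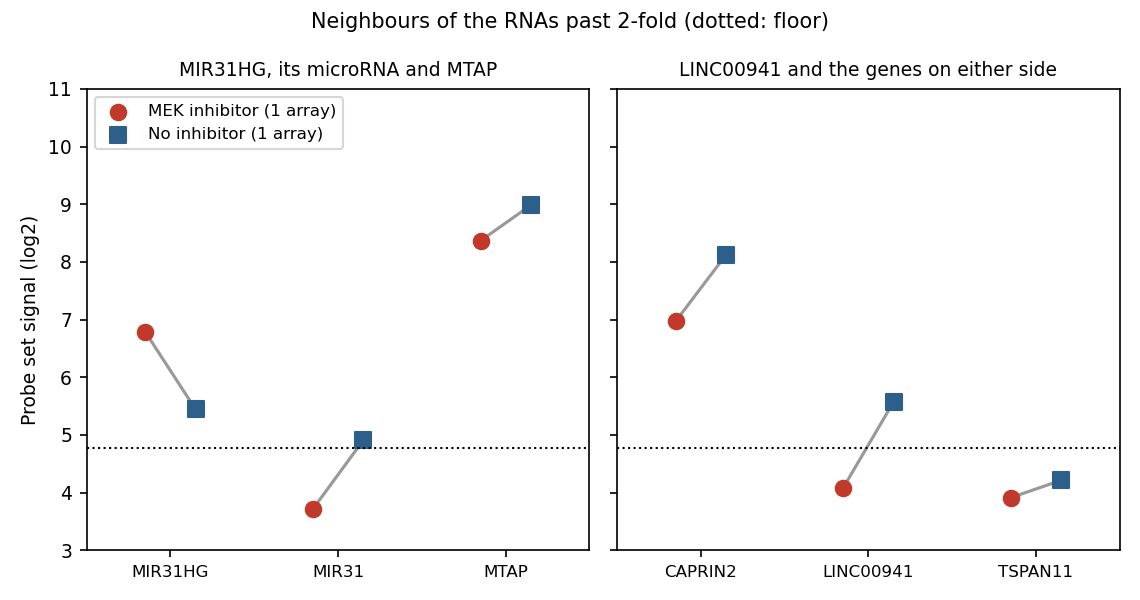
Log2 probe set signal with the inhibitor (red circles) and without it (blue squares), 1 array each, for MIR31HG with its microRNA and the neighbouring gene MTAP, and for LINC00941 with the genes on either side. CAPRIN2 and LINC00941 are lower with the inhibitor, whereas MIR31HG is higher while MIR31 and MTAP are lower.

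Antisense, intronic and overlapping RNAs were set beside the gene they are named after. Of 63 such RNAs detected, 42 had a sense gene with a named probe set, and the sense gene was above the floor in 26. The sense gene was unnamed on the array for the other 21, among them TPT1, HIF1A and SLC25A25, so 3 of the 4 antisense RNAs past 1.5-fold have no sense value. The fourth is TSPEAR-AS2, whose sense gene TSPEAR, an extracellular epilepsy-repeat protein gene, lay below the floor, with 4.41 with the inhibitor and 4.37 without it. In the 26 pairs with both RNAs detected, 15 had the same sign and 11 the opposite sign. Both were higher in 9 pairs and both lower in 6. The RNA was lower and its sense gene higher in 9, and the reverse held in 2. The log2 differences of the partners correlated with Pearson's r of 0.08 and Spearman's rho of 0.04 over these 26 pairs, which share the same 2 arrays, so both values are descriptions. No sense gene among the 26, and no RNA named after one, was past 1.5-fold.

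The widest gap was that of PDCD4-AS1, which read 5.18 with the inhibitor and 5.64 without it (-0.47). Its sense gene PDCD4, a translation inhibitor and tumour suppressor, read 6.43 with the inhibitor and 6.05 without it (0.39), so the pair lay 0.86 apart. ECE1-AS1 read -0.17 while ECE1, the endothelin-converting enzyme gene, read 8.71 with the inhibitor and 8.18 without it (0.53). MNX1-AS1 read 5.11 with the inhibitor and 5.67 without it (-0.55). The homeobox gene MNX1 had 5.25 with the inhibitor and 5.14 without it (0.11). SVIL-AS1 read -0.30 and SVIL, which encodes the actin-binding supervillin, 0.27. In these 4 pairs the antisense RNA was lower and the sense gene higher. ECE1-AS1 passed the floor only through the array without inhibitor.

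In other pairs the sense gene was lower while its antisense partner was nearly level. NIFK-AS1 read -0.04, and NIFK, a nucleolar protein gene of ribosome assembly, 9.03 with the inhibitor and 9.58 without it (-0.55). THUMPD3-AS1 read 0.07 and THUMPD3, a tRNA methyltransferase gene, -0.51. DHRS4-AS1 read 0.06 and the carbonyl reductase gene DHRS4 -0.44. With sense genes below the floor, NPPA-AS1 had 4.37 with the inhibitor and 4.87 without it (-0.51), beside 0.34 for the natriuretic peptide gene NPPA. RUNX1-IT1 had 4.49 with the inhibitor and 5.01 without it (-0.52), beside 0.22 for RUNX1. Both RNAs passed the floor only through the array without inhibitor, which admits such RNAs only with a negative difference. RUNX1-IT1 lies on the same strand as RUNX1, so the RNA of the 2 cannot be told apart where it is unspliced.

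**Figure D5:**
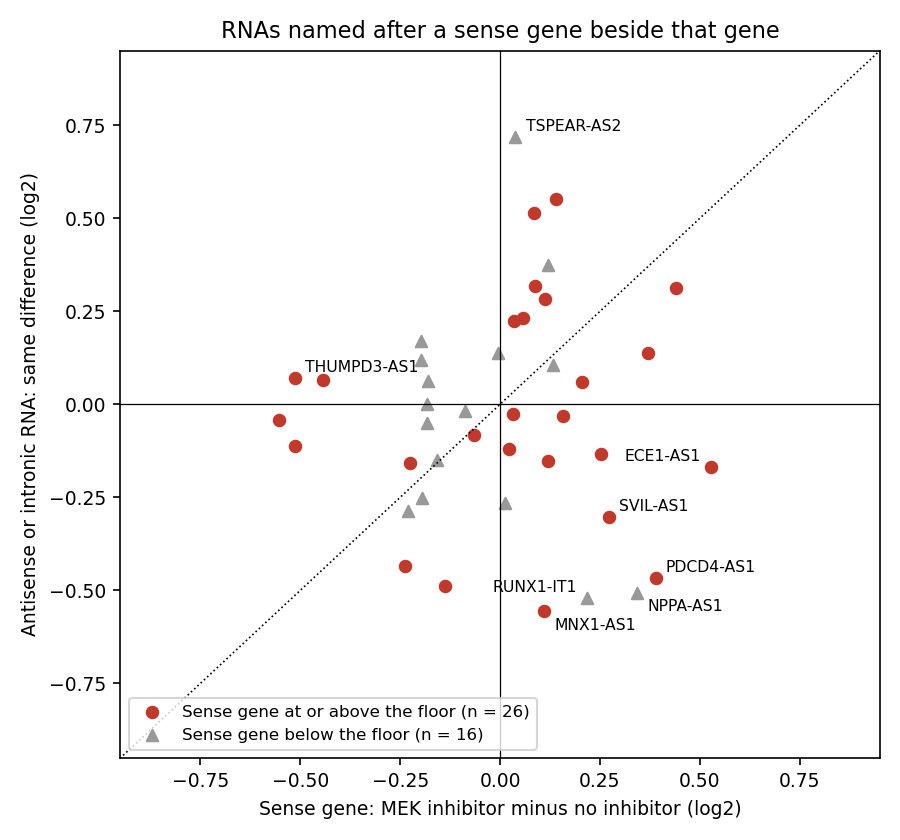
Log2 difference, MEK inhibitor minus no inhibitor, of each antisense, intronic or overlapping RNA (vertical axis) against that of its sense gene (horizontal axis) for 42 pairs, in red where the sense gene is at or above the floor and in grey where it is below. The points scatter around both axes without following the dotted line of equal differences, and PDCD4-AS1 and NPPA-AS1 lie farthest from it.

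The promoter table held windows of both partners for 47 of the 63 RNAs. In 14 the genes start head to head, pointing away from each other, and in 10 of these the 300-base windows overlap. TPT1-AS1 and TPT1 share 261 bases of their windows, and MNX1-AS1 and MNX1 share 293. In 31 the starts point towards each other, and in 2 both lie on the same strand. Of the pairs with both RNAs detected, 3 of 6 head-to-head pairs and 6 of 14 facing pairs had the same sign. The remaining pairs could not be placed, and all of them had the same sign. They are those of AFAP1-AS1, ASB16-AS1, ASMTL-AS1, BACE1-AS, BIN3-IT1 and JMJD1C-AS1. Facing starts can lie far apart, as with SVIL-AS1 and SVIL at 224728 bases. Per the labels' protocols the labelled target was sense-strand cDNA, which keeps the strands apart, but the strand each probe set reads was not checked here.

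Promoter windows were found for 94 of the 117 genes and for 11 of the 15 past 1.5-fold. Motifs were searched as plain letters on both strands. The ETS letters ACCGGAAG were in none of the 11, against 2.62% of all genes in the table, and the CRE letters TGACGTCA in none, against 2.25%. The AP-1 letters TGANTCA were in 2, LINC-PINT and LINC00963, against 9.37%. The antioxidant response element letters TGACNNNGC were in 3, LINC-PINT, LINC00472 and TPT1-AS1, against 16.1%. The E-box letters CACGTG were in 1, LINC-PINT, against 8.77%. A loose NF-kappaB motif, GGG and CC with 5 bases of any kind between them, was in 9, against 61.7%. Over the 94 detected genes with windows the shares were 71.3% for NF-kappaB and 23.4% for the antioxidant response element. They were 3.19% for ETS, 2.13% for CRE, 8.51% for AP-1 and 9.57% for the E-box. LINC-PINT has several start sites in the table, which gave it more sequence to match. The windows of MIR31HG and LINC00941 are rich in G and C, at 77.7% and 66.0%, while that of HIF1A-AS2 holds 34.7%. The windows printed above carry 4 NF-kappaB matches in MIR31HG. In LINC00941 there are 4 matches at 2 places, each place read on both strands, and matches may overlap. A match is a run of letters and was not tested as a binding site.

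Because the cells carried a HOXB7 rescue, RNAs of the HOX clusters were read as well, chosen by name. Of 6 named HOX antisense RNAs, 2 were detected. HOXA10-AS read 4.75 with the inhibitor and 5.09 without it (-0.34), so it was under the floor with the inhibitor. HOXC13-AS had 4.96 with the inhibitor and 5.01 without it (-0.05). HOXB-AS3, from the cluster that holds HOXB7, lay below the floor, with 4.22 with the inhibitor and 4.33 without it. HOXB7 itself read 5.85 with the inhibitor and 5.84 without it.

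Several probe sets were detected for 9 of the 117 genes, 33 probe sets in all. The 7 of LINC01061 were all lower, from -0.29 to -0.02. The 5 of LINC01347 ran from -0.13 to 0.12, the 3 of LINC01000 from -0.21 to 0.04 and the 3 of LINC00999 from -0.04 to 0.04. Within each of these RNAs the differences lay at most 0.27 apart. The probe sets of LINC00265 disagreed, with 7.14 with the inhibitor and 6.82 without it (0.32) in one, and 6.05 with the inhibitor and 6.42 without it (-0.37) in the other. The 3 of PSMB8-AS1 held identical values (0.48) and are 1 measurement, and the 5 of HLA-F-AS1 held 3 different values. At the edge of detection, SLC25A25-AS1 (4.79), ECE1-AS1 (4.79) and MIR210HG (4.79) were just above the floor by their higher value, and SHANK2-AS1 (4.77), MIR550A3HG (4.77) and a second probe set of ASMTL-AS1 (4.77) just below it.

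The arrays had medians of 3.46 with the inhibitor and 3.49 without it. All 16 measured genes of a list of ERK targets were lower with the inhibitor, and the floor left none of them out. Of the 16, 10 were at least 2-fold lower, against 1.07% of the named probe sets above the floor. With the inhibitor, ETV1 (3.32), ETV4 (4.55), ETV5 (4.06), SPRY2 (4.72) and SPRY4 (4.77) were under the floor. Each of these passed it through the array without inhibitor alone. DUSP4, DUSP5, DUSP6, EGR1 and TRIB1 were above it on both arrays. The label of a pancreatic epithelial line was checked against its markers. All 7 named ductal markers, among them EPCAM and KRT19, were above the floor. CDH1, MUC1 and CFTR were not named on the array. Markers of other cell types above the floor were 1 of 5 acinar or endocrine (CTRC), 0 of 2 fibroblast, 2 of 4 leukocyte (CD68 and TYROBP) and 2 of 5 endothelial genes (ESAM and CLDN5). Of these, ESAM read 5.09 with the inhibitor and 5.72 without it (-0.63) and CD68 8.53 with the inhibitor and 8.95 without it (-0.43), and their part in the results was not tested. The ductal marker SOX9 read 6.79 with the inhibitor and 8.03 without it (-1.24), and CLDN4 5.85 with the inhibitor and 4.90 without it (0.95). Fewer cells of a type and less RNA per cell cannot be told apart in bulk RNA.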

How the data were processed

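Per the labels, 100 ng of total RNA was labelled as sense-strand cDNA (GeneChip WT PLUS). The authors deposited 1 log2 value per probe set and array. The log2 scale is inferred from the values. Per the submitters' processing notes, Expression Console 1.3 was used, with no normalization settings named in those notes. The values were used as deposited.

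Samples were grouped by title. Symbols came from the platform annotation (16098 named probe sets). The floor of 4.78 is the median gene level (mean of both arrays, 13763 genes), microRNA and SCARNA symbols left out and the brightest probe set kept per gene. Differences are MEK inhibitor minus no inhibitor. Members and lists were chosen with earlier results of these data known. Named RNAs are those past 1.5-fold, all detected SNHG and microRNA host genes, the 10 widest antisense pairs, the 5 brightest, those at the floor, and, of the lists other than ERK targets, members past 1.5-fold or brightest; others are named as neighbours or list members. The counting was tested on simulated data. Sequences are from RefSeq (GRCh38.p14). Alternatives changed the scaling, the floor, the threshold and the handling of several probe sets. Python 3.11.15, numpy 2.4.6, pandas 2.3.3 and statsmodels 0.14.6 were used.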

Additional observations from a re-analysis of the deposited data

How the results depend on the processing

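No paired analysis was possible because there was only 1 array on either side, which also means that none can be dropped. Taking off the median difference (0.00), or a loess trend instead (-0.02 to 0.05 over the members) left 1 member past 2-fold in each direction, and all 15 members past 1.5-fold kept their sign. As neither moved values far, they probe the scaling little. LINC00707 (0.58) then lay just under 1.5-fold with the loess trend removed. Without a floor, 2 members were past 2-fold higher and 2 lower, the microRNA host median was -0.017, and the antisense pairs numbered 171 of the same and 173 of the opposite sign. With the 75th percentile floor (6.45), 1 was higher and 0 lower, since LINC00941 is dimmer than that, and no antisense pair had both partners left. At that floor the medians were -0.13 over all members (main -0.03), -0.11 for LINC (-0.04), -0.11 for antisense (0.00) and -0.17 for SNHG (-0.10). With the loess trend removed they were -0.06 over all members, -0.06 for LINC and -0.04 for antisense RNAs. At 1.5-fold 8 were higher and 7 lower, and at 3-fold 0 and 0. A value is called moved here when it shifted by more than the median disagreement between probe sets (0.12), and a count when it changed by over 1.5 times. Of 86 recomputed values 76 stayed within these limits and 10 moved. The 76 include 30 differences of the members past 1.5-fold under the changes of scaling, which were too small to move any of them. A reversed sign was counted only for differences of at least 2-fold, so only MIR31HG and LINC00941 could show one, and neither did.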

Other observations

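Long non-coding RNAs whose symbols the naming rule does not take were read from a list of 70, of which 35 were named on the array and 13 above the floor by their brightest probe set. Of these 13, 4 were higher and 9 lower, and 1 was past 1.5-fold, against 8.17% of the named probe sets above the floor. CRNDE, an RNA raised in colorectal tumours, had 5.0 with the inhibitor, against 3.89, below the floor, without it (1.11). HCP5, an RNA of the major histocompatibility region, had 3 probe sets, all higher, at 0.44, 0.86 and 0.88. Its brightest one had 6.66 with the inhibitor, against 6.22 without it, and PSMB8-AS1, from the same region, read 0.48. CYTOR had 1 of its 3 probe sets past 1.5-fold, with 6.64 with the inhibitor and 7.40 without it (-0.76).

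The RNAs of the list with the highest signals differed little. RMRP, the RNA of RNase MRP, read 12.0 with the inhibitor and 12.2 without it (-0.13). UCA1, an RNA raised in urothelial cancer, read 11.5 with the inhibitor and 11.3 without it (0.29). MALAT1, a nuclear speckle RNA, read 11.1 with the inhibitor and 10.8 without it (0.29), and its other probe sets 0.16 and 0.42. The snoRNA hosts GAS5 (-0.14) and ZFAS1 (-0.02), which are named without SNHG, and DANCR (-0.32) were lower, as were NORAD (-0.13) and the telomerase RNA TERC (-0.43). Below the floor, LINC00842 read 4.53 with the inhibitor and 3.20 without it (1.33) and RAB11B-AS1 4.20 with the inhibitor and 3.30 without it (0.90), in signals too dim to call detected.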
